A study of Homo sapiens with 16 samples.

Results

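The mitochondrial ribosomal proteins examined here are the genes whose symbols are MRPL or MRPS followed by a number and at most 1 letter, with a mean of at least 10 estimated counts over the 16 libraries. This rule took 76 of the 20531 entries of the count table, 47 named for the large subunit and 29 named for the small subunit. No row with such a symbol fell below the mean count of 10. The members just inside were MRPL54 with a mean of 14.75 counts, MRPS36 with 16.06 and MRPL55 with 16.5, and the highest was MRPS27 with 268.6. All 76 members passed the filter on low counts in every comparison.

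Cells of LNCaP, an androgen-sensitive line from human prostate cancer, received 40 nM siRNA for 24 h and were then held without serum for a further 24 h with ethanol vehicle or with 1 nM dihydrotestosterone (DHT), the main androgen of the prostate. The siRNA was either a nonsense sequence (NS), which served as control, or a mixture of 3 siRNAs directed at SLIRP, an RNA-binding protein that acts as a nuclear receptor corepressor and is also found in mitochondria. With 4 libraries each, the control groups were NS-Veh and NS-1nM DHT, and the knockdown groups SLIRP-Veh and SLIRP-1nM DHT. All control libraries had received the nonsense siRNA, and untransfected cells were not analysed here. The comparisons ask how the loss of SLIRP and a low dose of androgen changed gene expression.

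Human mitochondria carry their own ribosome, which makes the few respiratory chain subunits encoded in mitochondrial DNA. Its RNA is made inside the organelle, whereas its proteins are encoded in the nucleus, made in the cytosol and imported. The large subunit forms peptide bonds and holds the exit tunnel, and the small subunit binds the mRNA and reads the code. SLIRP works with LRPPRC inside mitochondria, where the pair binds and protects mitochondrial mRNAs.

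Library totals lay between 436353 and 1689708 estimated counts, so that 3 counts corresponded to 1.78 to 6.88 CPM, the count scaled to a common library total. The lowest count of any member in any library was 3 and the highest 485. SLIRP, listed under its older symbol C14orf156, had 58, 57.9, 63.4 and 57.8 CPM in NS-Veh and 45.1, 56.3, 56.6 and 61.4 in NS-1nM DHT, against 2.96, 7.83, 4.04 and 1.75 in SLIRP-Veh and 2.61, 1.41, 1.94 and 8.04 in SLIRP-1nM DHT. The fold change over all libraries was −3.89 on the log2 scale (SE 0.207, edgeR quasi-likelihood test, FDR 1.38e-15). KLK3, which encodes prostate-specific antigen, rose with DHT by 2.67 in NS cells (SE 0.14, FDR 8.21e-15, edgeR). Of 9 markers of luminal prostate cells all 9 passed the filter, and their sum lay between 2853 and 4451 CPM. FOLH1 (log2 fold change −0.68) and KRT8 (−0.51) were among those lower with SLIRP siRNA, and EPCAM (0.52) was higher. Of 9 markers of basal, mesenchymal, blood and endothelial cells 1 passed in the comparison over 16 libraries (COL1A1), KRT5, TP63, PTPRC and PECAM1 were at 0 counts in every library, and the sum of all 9 lay between 12.69 and 38.03 CPM.

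The starts of these genes are shown first, since one short sequence recurs in them. A stretch of 300 bases, 250 before and 50 after the gene's start, was found in RefSeq (GRCh38.p14) for 68 of the 76 members. The letters AAGATGGCG, the core that the transcription factor YY1 recognizes, stood on either strand in 13 of the 68 (19.1%), against 4.69% of the 8313 tested genes with such a stretch and 1.85% of all 27305 stretches of this length. The 13 members held 14 copies, of which 10 began 6 to 35 bases after the start and 4 began before it. The windows below run 5′ to 3′ on the strand of the gene with the match in capitals, and they are shown for the called members that hold it and for 5 of the others.
MRPL42 (chr12:93467511-93467541, plus strand): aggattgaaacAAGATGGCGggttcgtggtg
MRPL22 (chr5:154941097-154941122, plus strand): cgggagggcgaAAGATGGCGgcggca
MRPL32 (chr7:42932142-42932172, plus strand, read on the other strand): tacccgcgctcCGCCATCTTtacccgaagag
MRPS18A (chr6:43687763-43687793, minus strand): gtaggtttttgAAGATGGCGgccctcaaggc
MRPS18B (chr6:30617852-30617882, plus strand): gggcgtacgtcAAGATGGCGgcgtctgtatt
MRPS30 (chr5:44808949-44808979, plus strand): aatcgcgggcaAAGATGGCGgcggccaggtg
MRPL46 (chr15:88467361-88467391, minus strand): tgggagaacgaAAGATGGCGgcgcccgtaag
MRPS10 (chr6:42217833-42217863, minus strand): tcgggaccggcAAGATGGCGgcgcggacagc
The MRPL42 match began 8 bases after the start, that of MRPL46 8, those of MRPS10 and MRPS18A 9, that of MRPS30 13, that of MRPS18B 23 and that of MRPL22 35, whereas the MRPL32 match began 223 bases before it. A match of letters is a description and not a binding site. The letters also hold ATG, the triplet at which coding sequences begin. Whether the copies after the gene's start overlap the start of the coding sequence was not examined.

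Other motifs that are common at the starts of genes for mitochondrial proteins were counted in the same way. The letters CCGGAAGT, which factors such as GABP recognize, stood in 11 members (16.2%), against 10.3% of tested genes and 4.44% of all stretches. The NRF1 letters GCGCATGCG stood in 3 members (4.41%), against 4.25% and 2.1%. The E-box CACGTG stood in 7 members (10.3%, against 10.8% and 7.43%) and the GC box GGGCGG in 42 (61.8%, against 71.9% and 44.6%). Each was searched on both strands, and none of these letter strings contains another.

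Over all 16 libraries, 15 members were higher and 6 were lower with SLIRP siRNA at a false discovery rate (FDR) of 0.01 (edgeR quasi-likelihood test, Benjamini-Hochberg adjustment over 10167 genes). These are 19.7% and 7.89% of the members, beside 17.8% of all genes tested that were higher and 17.4% that were lower. The members' share of higher calls was thus near that of all genes and their share of lower calls below it. The median log2 fold change of the 76 members was 0.18, against −0.01 for all genes tested, and 56 members had a positive and 20 a negative value. The fold changes that passed were modest, from 1.17-fold for MRPS27 to 1.82-fold for MRPL42. These are bulk libraries, in which a change in the share of cells of a kind, such as cells in cycle, and a change in RNA per cell cannot be told apart.

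**Figure D1:**
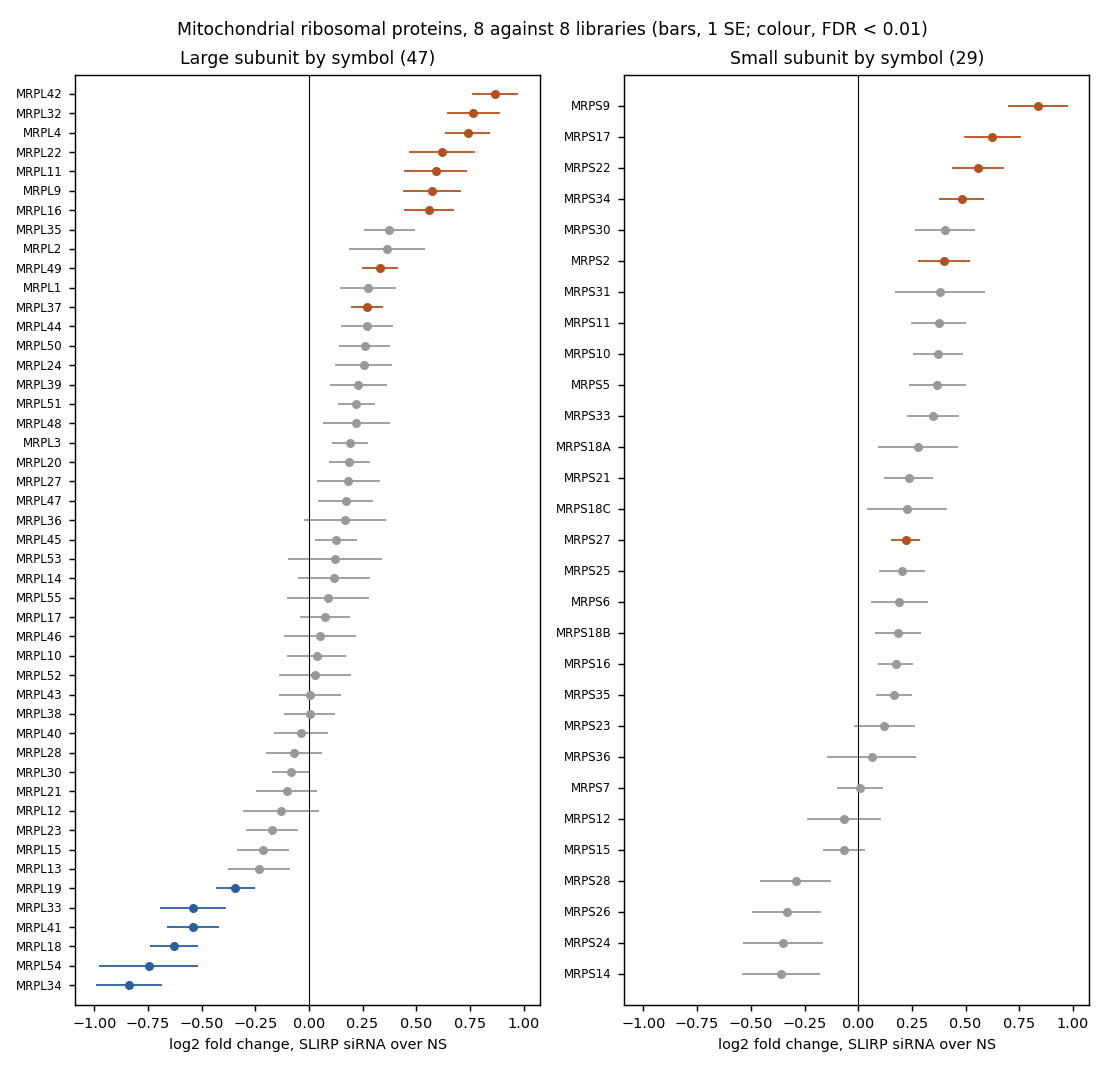
Log2 fold change of each of the 76 members with SLIRP siRNA over NS, 8 against 8 libraries, with the 47 large-subunit members on the left and the 29 small-subunit members on the right. Points are edgeR estimates, bars are 1 SE, and colour marks an FDR under 0.01: 9 large and 6 small members were higher, and the 6 that were lower are all on the left.

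In 5 members called higher and 1 called lower, each of the 8 SLIRP siRNA libraries lay on one side of all 8 NS libraries. Such separate and called genes made up 7.86% of all genes tested in the upward direction and 7.24% in the downward direction, and the 5 and the 1 of 76 members stand below both.

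MRPL42 encodes a large-subunit protein that has no bacterial counterpart. Its 4 NS-Veh libraries had 78.1, 71.9, 64.7 and 94.8 CPM and its 4 NS-1nM DHT libraries 59.8, 77.9, 80.1 and 105. With SLIRP siRNA the values were 141, 106, 148 and 138 in vehicle and 167, 176, 157 and 136 in DHT. The lowest SLIRP siRNA library, at 106 CPM, stood just above the highest NS library, at 105, and the log2 fold change was 0.86 (SE 0.107, FDR 7.57e-08). The gene lies at chr12:93861290-93909990 of hg19, plus strand. GENCODE names 5 pseudogenes after it, so that reads may have been split between copies. The start of the gene, here whole with the YY1 letters in capitals (GRCh38.p14 chr12:93467264-93467563, plus strand), is printed because MRPL42 had the smallest FDR of the members.
MRPL42: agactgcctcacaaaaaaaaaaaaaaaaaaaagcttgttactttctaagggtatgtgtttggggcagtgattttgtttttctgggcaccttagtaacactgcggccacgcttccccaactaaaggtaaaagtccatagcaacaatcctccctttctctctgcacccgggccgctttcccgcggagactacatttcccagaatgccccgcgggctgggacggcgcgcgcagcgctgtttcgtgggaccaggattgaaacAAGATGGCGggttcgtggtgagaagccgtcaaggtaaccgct

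MRPL32, a protein of the large subunit that is cut to its mature form after import, had 40, 32.4, 33 and 40.1 CPM in NS-Veh and 56.6, 59.4, 51.4 and 57.8 in NS-1nM DHT. In SLIRP-Veh it had 68.7, 78.3, 74 and 75.4 and in SLIRP-1nM DHT 106, 74.7, 82.5 and 91.7. The group means stood in this order, 36.4 ± 4.25, 56.3 ± 3.46, 74.1 ± 4.03 and 88.7 ± 13.3 CPM (SD, n = 4), and the last pair overlapped. The log2 fold change with SLIRP siRNA was 0.77 (SE 0.125, FDR 7.26e-06). The gene lies at chr7:42971975-42988557 of hg19, plus strand.

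MRPL4 encodes a universal protein of the large subunit that lines the exit tunnel. It had 54, 57.9, 42.9 and 54.6 CPM in NS-Veh, 36.7, 45.5, 53.1 and 49.7 in NS-1nM DHT, 71.6, 95.5, 72.6 and 78.9 in SLIRP-Veh and 75.6, 77.6, 89.3 and 90.9 in SLIRP-1nM DHT. The SLIRP siRNA libraries, all at 71.6 CPM or more, stood clear of the NS libraries, all at 57.9 or less, with a log2 fold change of 0.74 (SE 0.104, FDR 6.94e-07). The gene lies at chr19:10362577-10370731 of hg19, plus strand.

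MRPS9 encodes a universal small-subunit protein whose bacterial counterpart touches the tRNA. It had 40, 27.8, 34.4 and 44.2 CPM in NS-Veh and 28.3, 33.9, 39.2 and 43.9 in NS-1nM DHT. With SLIRP siRNA it had 68.1, 81.4, 48.4 and 57 in vehicle and 100, 74.7, 62.1 and 49.1 in DHT. The SLIRP siRNA libraries spread widely, from 48.4 to 100 CPM, but stayed above the NS maximum of 44.2, and the log2 fold change was 0.84 (SE 0.141, FDR 1.25e-05). Its size differed between the replicate numbers, at 1.3 with only replicates 1 and 2 (FDR 8.24e-06, edgeR) and 0.44 with only replicates 3 and 4, where it missed the threshold (FDR 0.0282). It lies at chr2:105654527-105716418 of hg19, plus strand.

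MRPS17, another universal small-subunit protein, which binds the ribosomal RNA, had 30, 23.2, 25.8 and 25.7 CPM in NS-Veh, 23.1, 19.3, 27 and 24.1 in NS-1nM DHT, 39.7, 36, 44.4 and 41.2 in SLIRP-Veh and 31.3, 35.3, 44.7 and 30.6 in SLIRP-1nM DHT. The gap between the siRNAs was narrow, from 30 to 30.6 CPM, and the log2 fold change was 0.63 (SE 0.131, FDR 0.000213). Its exons at chr7:56019570-56024193 of hg19 (plus strand) overlap those annotated for NIPSNAP2, so its reads may not all be its own.

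MRPL34, the counterpart of the small bacterial protein L34, was the only member both called lower and separate. Its NS-Veh libraries had 44, 30.1, 25.8 and 38.5 CPM and its NS-1nM DHT libraries 35.6, 34.7, 42.7 and 32.2. The SLIRP-Veh libraries had 17.8, 11, 21.5 and 19.3 and the SLIRP-1nM DHT libraries 24.8, 19.7, 17.5 and 24.1. The highest SLIRP siRNA library, at 24.8, stood just below the lowest NS library, at 25.8, and the log2 fold change was −0.84 (SE 0.153, FDR 3.91e-05). The gene lies at chr19:17403418-17417652 of hg19, plus strand. Its start (GRCh38.p14 chr19:17292323-17292622, plus strand) is shown because none of the YY1, GABP, NRF1 or E-box letters stands in it. These letters are also absent from the starts of members called higher, such as MRPL4, MRPS9 and MRPS17. The YY1 letters stood in 20% of the 15 starts of members called higher, in 0 of 6 called lower and in 21.3% of the 47 not called. In the sequence the capitals mark 3 GC boxes read on the other strand.
MRPL34: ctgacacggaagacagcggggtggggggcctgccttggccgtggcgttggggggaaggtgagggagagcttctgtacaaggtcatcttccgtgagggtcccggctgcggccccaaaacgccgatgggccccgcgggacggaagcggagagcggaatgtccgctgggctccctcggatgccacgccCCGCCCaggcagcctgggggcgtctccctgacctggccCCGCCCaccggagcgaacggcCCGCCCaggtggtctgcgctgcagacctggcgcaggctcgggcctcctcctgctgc

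**Figure D2:**
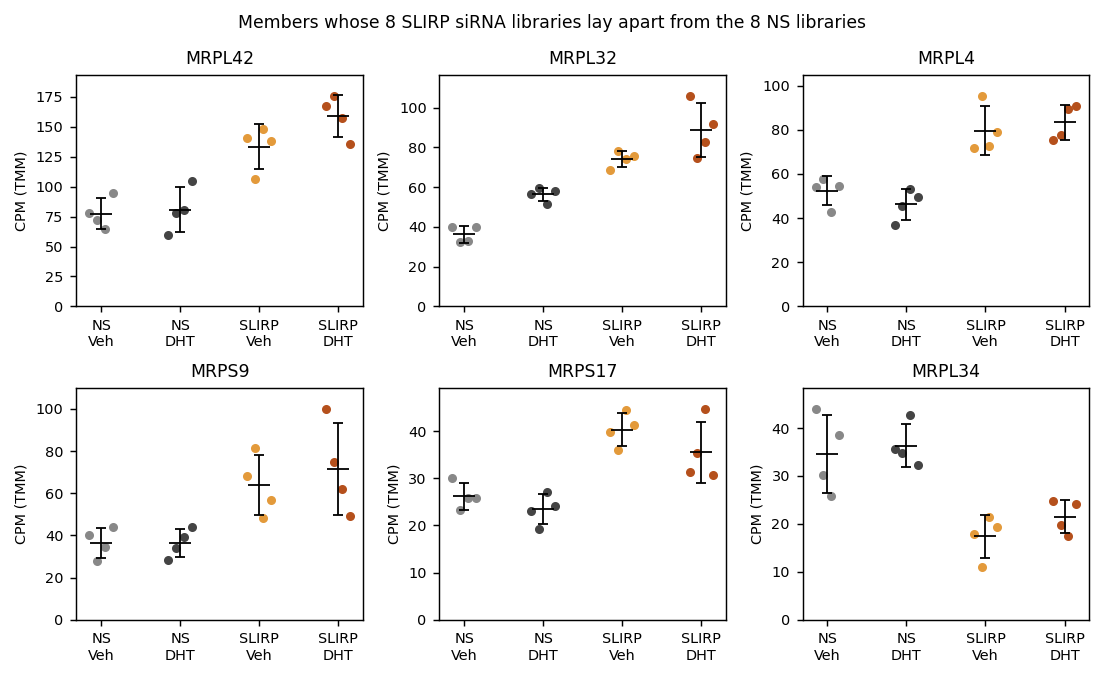
CPM after TMM normalization in each library for the 5 members called higher and the 1 called lower whose siRNA groups did not overlap. Points are the 4 libraries of a group, bars are the mean and SD, and every axis starts at 0. In each panel the 8 SLIRP siRNA points lie on one side of the 8 NS points.

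The other 10 members called higher overlapped between the siRNAs. Large-subunit members among them were MRPL22 (log2 fold change 0.62), MRPL11 (0.59), MRPL9 (0.57), MRPL16 (0.56), MRPL49 (0.33) and MRPL37 (0.27). Small-subunit members were MRPS22 (0.56), MRPS34 (0.48), MRPS2 (0.40) and MRPS27 (0.22). Their FDRs by edgeR ran from 0.000172 for MRPL16 to 0.009 for MRPS27.

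The 5 others called lower were also large-subunit members. MRPL18, the counterpart of bacterial L18, fell by 0.63 on the log2 scale (SE 0.112, FDR 2.63e-05, edgeR), from between 42 and 71.9 CPM in the 8 NS libraries to between 34.4 and 45.1 in the 8 SLIRP siRNA libraries. MRPL54 fell by 0.75 (SE 0.231, FDR 0.00863), and its low values of 6.95 to 26.2 CPM in NS and 4.86 to 17.2 with SLIRP siRNA overlapped over much of their range. MRPL41 and MRPL33 each fell by 0.54 (FDR 0.000416 and 0.0045) and MRPL19 fell by 0.34 (FDR 0.00248). MRPL41 had 46.4 to 64.8 CPM in NS and 28.2 to 49.6 with SLIRP siRNA, and its ranges overlapped, as those of MRPL33 and MRPL19 did.

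By subunit, 9 of 47 large members were higher (19.1%) and 6 lower (12.8%), with a median log2 fold change of 0.13. Of 29 small members 6 were higher (20.7%) and 0 lower, with a median of 0.22, and 23 of the 29 values were positive. Both shares of higher calls were near the 17.8% of all genes, and the shares of lower calls stood below the 17.4% of all genes. Small members with negative values, led by MRPS14 at −0.36, did not pass the test. Subunit names in solved structures differ from the symbols for 3 members. MRPS18A and MRPS30 sit in the large subunit (structural names mL66 and mL65), and MRPS36 has no place in the ribosome. With these moved, the large subunit counted 49 members with 9 higher and 6 lower and the small subunit 26 with 6 higher and 0 lower, and the median of each was 0.17 and 0.21.

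Summed over members, the large subunit made up 0.228 ± 0.00695% of a library's counts in NS-Veh (SD, n = 4), 0.247 ± 0.00858% in NS-1nM DHT, then 0.259 ± 0.0121% for SLIRP-Veh and lastly 0.277 ± 0.0031% for SLIRP-1nM DHT. The small subunit made up 0.154 ± 0.00287%, 0.160 ± 0.00723%, 0.181 ± 0.00377% and 0.188 ± 0.0034% in the same order. Small-subunit shares did not overlap between the siRNAs: the 4 NS-Veh libraries lay between 0.15% and 0.156%, those of NS-1nM DHT between 0.151% and 0.166%, those of SLIRP-Veh between 0.176% and 0.185% and those of SLIRP-1nM DHT between 0.184% and 0.191%. Large-subunit shares overlapped between NS-1nM DHT (0.239% to 0.257%) and SLIRP-Veh (0.244% to 0.269%). These sums group members by symbol, so MRPS18A and MRPS30 count as small. Abundant members, such as MRPS27 with a mean of 262.7 CPM, weigh most in them.

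A direct comparison used the mean log2 CPM of large minus small members in each library. This difference ranged from −0.0297 to 0.0335 in NS-Veh and from 0.0245 to 0.0604 in NS-1nM DHT. It ranged from −0.154 to −0.00478 in SLIRP-Veh and from −0.0765 to −0.0372 in SLIRP-1nM DHT. The mean over 8 SLIRP siRNA libraries was −0.0829 relative to the 8 NS libraries, with a pooled SD of 0.0387. In vehicle the shift was −0.0673 (pooled SD 0.05), with overlapping ranges, and −0.0385 without SLIRP-Veh replicate 1, the library at −0.154. In DHT it was −0.0985 (pooled SD 0.0172), without overlap. With the median over members in place of the mean the shifts were larger, −0.263 over all libraries, −0.275 in vehicle and −0.25 in DHT, so the size depends on the summary used. No test was run on this score, since the members had been chosen with results in view. Members were grouped by symbol for it. MRPS18A and MRPS30, with log2 fold changes of 0.28 and 0.41, thus counted as small though they sit in the large subunit.

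**Figure D3:**
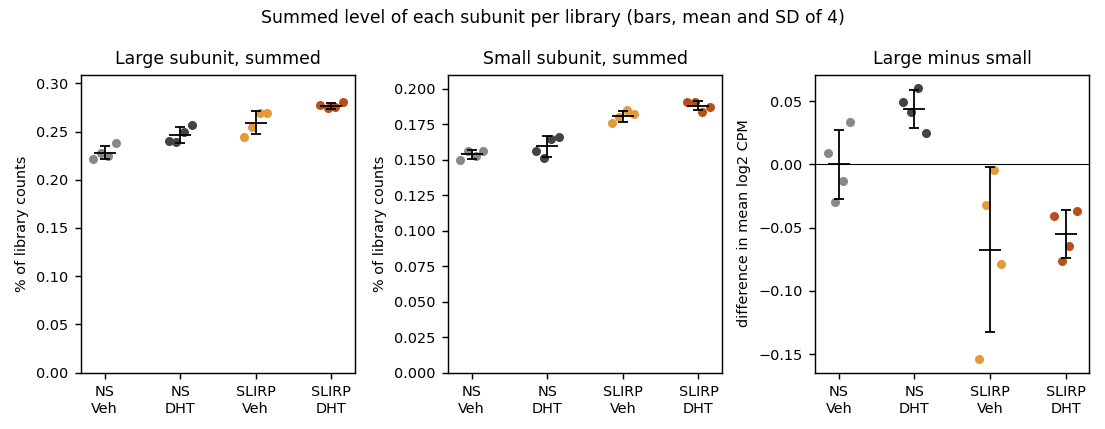
Summed share of library counts of the large-subunit members (left) and small-subunit members (middle), and the large minus small difference in mean log2 CPM (right), per library. Subunits are by symbol. Points are libraries, bars are the mean and SD of 4. Small-subunit shares of the SLIRP siRNA libraries, from 0.176% to 0.191%, lie above those of the NS libraries, and the differences on the right overlap between the siRNAs in vehicle and are lower with SLIRP siRNA in DHT.

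Another list moved with the siRNA and with DHT alike. The sum of 10 proliferation genes (such as PCNA and MKI67) was between 372.3 and 619 CPM in NS-Veh, 764.3 and 1046 in NS-1nM DHT, 1723 and 2018 in SLIRP-Veh and 2246 and 2705 in SLIRP-1nM DHT, the same order as the summed share of the members. All 10 rose with SLIRP siRNA, with a median log2 fold change of 1.40. Its part in the members' values was not tested. The libraries numbered 1 and 2 also stood apart from those numbered 3 and 4 in every group: this sum was lower in the former within both NS groups and higher within both SLIRP siRNA groups. Cytosolic ribosomal proteins took 4.55% to 4.82% of the counts in libraries 1 and 2 and 4.82% to 5.16% in libraries 3 and 4. A term for this split left 15 members higher and 6 lower over 16 libraries.

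The members can be divided by their evolutionary origin, as structural names give it. Of 16 universal large-subunit members, shared by ribosomes of all organisms, 4 were higher and 1 lower, and of 14 shared with bacteria 2 were higher and 3 lower. Of 19 large-subunit members specific to mitochondria 3 were higher and 2 lower. In the small subunit 3 of 11 universal members, 0 of 5 bacterial and 3 of 10 mitochondria-specific members were higher. Beside the 17.8% of all genes that were higher and 17.4% that were lower, no class is set apart from the background by these small counts, and no test was run on them.

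Members with short transcripts held few of the higher calls and members with long transcripts few of the lower ones. Taking for each gene the median length of its annotated coding transcripts, 31 members were under 1000 bases, of which 2 (6.45%) were called higher and 5 (16.1%) lower. Of all tested genes under 1000 bases, 16.7% were higher and 17.1% lower, so that the short members' share of lower calls was near that of other short genes. The other 45 members were 1000 bases or longer, of which 13 (28.9%) were higher and 1 (2.22%) lower, against 18% and 17.5% of all tested genes of that length. These are counts without a test, and the class of a member depends on the transcripts taken. For 22 members the coding transcripts are very unequal in length, such as MRPL19 (693 to 7825 bases) and MRPL49 (489 to 2026). The median length was 686 bases for the 6 members called lower, 1483 for the 15 called higher and 1136 for the 55 not called. MRPL19, at 1076 bases, was the one long member called lower. Length also went with subunit, with a median of 1009 bases for large and 1486 for small members by symbol. All 6 members called lower were of the large subunit, and length and subunit were not separated here.

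Between members, levels were compared as CPM per kilobase of transcript, for the 54 members (33 large, 21 small) whose coding transcripts differ in length by at most 2-fold. Levels differed 10.1-fold among them, from 11.36 to 114.6 CPM per kilobase, with a median of 42.8 in the large and 35.1 in the small subunit. The highest large-subunit members were MRPL37 at 114.6 ± 15.7 (SD over 16 libraries), MRPL20 at 100.1 ± 13.9 and MRPL3 at 94.22 ± 13.0, neighbours within their spread. The lowest were MRPL50 at 14.07 ± 2.65, MRPL14 at 19.23 ± 3.33 and MRPL11 at 21.97 ± 6.82. This order pools the siRNAs and did not hold throughout within each. Over the 8 NS libraries MRPL37 (103 ± 11.2) was followed by MRPL33 (98.6 ± 26.6) and MRPL41 (94 ± 10.6), both called lower with SLIRP siRNA, and then by MRPL20 (93.3 ± 11.1) and MRPL3 (87.9 ± 7.37). Over the 8 SLIRP siRNA libraries MRPL11, which was called higher, stood at 27.1 ± 4.9 against 16.8 ± 3.88 in NS, above 8 other large-subunit members, and MRPL54 (18.2 ± 7.14) took its place among the lowest 3. In the small subunit MRPS35 (98.47 ± 12.5), MRPS15 (94.59 ± 13.0) and MRPS34 (82.64 ± 19.7) were highest, and MRPS31 (13.28 ± 4.63), MRPS36 (12.87 ± 3.74) and MRPS14 (11.36 ± 3.32) lowest. Over 16 libraries no difference within each trio went beyond the spread. Within NS, however, MRPS34 (67.9 ± 6.04) stood below MRPS35 (93.2 ± 11.5) and MRPS15 (96.2 ± 15.2) by more than these SDs. MRPS34 was called higher with SLIRP siRNA, where it stood at 97.4 ± 17.2. The same trios stood highest and lowest within each siRNA, though in another order, with MRPS5 level with MRPS14 in NS (12.9 each). MRPS36, which in cells belongs to a dehydrogenase complex of the citric acid cycle, was thus among the least abundant small-subunit symbols.

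The paralogues MRPS18A, MRPS18B and MRPS18C, 3 human copies of bacterial S18 of which each occupies its own place in the ribosome, did not pass the test with SLIRP siRNA. Their log2 fold changes were 0.28 (SE 0.186, FDR 0.229), 0.18 (SE 0.107, FDR 0.162) and 0.23 (SE 0.185, FDR 0.331). Per kilobase, MRPS18B was at 40.36 ± 5.95 CPM and MRPS18A at 20.67 ± 5.64 (SD over 16 libraries), and MRPS18C has coding transcripts too unequal in length for such a level. MRPS30 had a log2 fold change of 0.41 (SE 0.14, FDR 0.0175) and MRPS36 of 0.06 (SE 0.207, FDR 0.834).

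The same siRNA contrast was then made within each treatment. In vehicle 7 members were higher and 3 lower, beside 11.8% and 9.95% of the 10684 genes tested (the members' shares are 9.21% and 3.95%). In DHT 9 members were higher and 4 lower, beside 12.8% and 11.6% (members 11.8% and 5.26%). The treatments have separate control libraries. Without NS-Veh replicate 3 the vehicle counts were 3 and 1, without SLIRP-1nM DHT replicate 2 the DHT counts were 4 and 1, and DESeq2 called 1 member lower in each treatment. MRPL42, MRPL32, MRPL4 and MRPS9 were higher and MRPL34 and MRPL18 lower in both, which is 60% of the 10 calls in vehicle and 46.2% of the 13 in DHT. Over all genes tested the shared calls made up 79% of those in vehicle and 70.3% of those in DHT. Of the 76 members 65 (85.5%) had the same sign in both treatments, against 81.6% of all genes, and nothing particular to the members is read from either share.

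A further 4 members were called in vehicle but missed the threshold in DHT. MRPL16 had log2 fold changes of 0.76 (FDR 0.000437) in vehicle and 0.42 (FDR 0.0304) in DHT, MRPL35 had 0.56 (FDR 0.00916) and 0.21 (FDR 0.339), MRPL33 had −0.69 (FDR 0.00629) and −0.40 (FDR 0.131), and MRPS17 had 0.63 (FDR 0.00893) and 0.60 (FDR 0.0107). Another 7 were called in DHT alone: MRPL11, MRPL22, MRPL49, MRPS22 and MRPS34 higher, and MRPL19 and MRPL54 lower. No difference between the treatments was shown for any of these 11, since the interaction passed in 0 of 76 members.

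**Figure D4:**
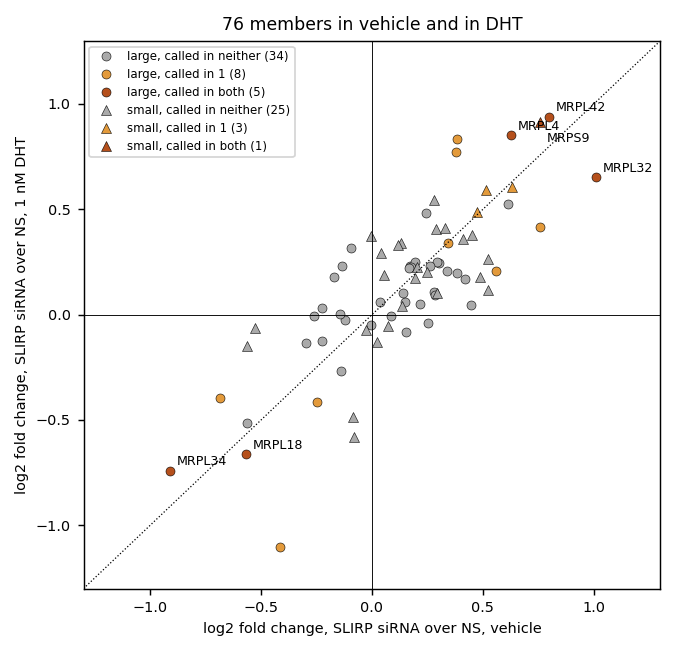
Log2 fold change of each member with SLIRP siRNA in vehicle (horizontal) and in 1 nM DHT (vertical), with circles for large-subunit and triangles for small-subunit members. The 6 members called in both treatments are named, and the dotted line marks equal values. Of the 76 points 65 lie above 0 on both axes or below 0 on both.

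DHT was then compared with vehicle. In NS cells 0 members passed, beside 1.31% of the 10367 genes tested (edgeR, with 9 members at an unadjusted p under 0.05, and DESeq2 also gave 0). The largest changes of either sign were those of MRPL32, MRPL53 and MRPS26. MRPL32, described above, had a log2 fold change of 0.62 (SE 0.157, FDR 0.0219), with its 4 NS-1nM DHT libraries all above its 4 NS-Veh libraries. MRPL53, whose NS-Veh values were 30, 9.27, 20.5 and 21.7 CPM and NS-1nM DHT values 10.5, 18.5, 14.8 and 14.6, had −0.49 (SE 0.267, FDR 0.416). MRPS26 had 32, 23.2, 36.3 and 30.5 CPM in NS-Veh and 43, 50.9, 50.5 and 35.8 in NS-1nM DHT, a log2 fold change of 0.48 (SE 0.18, FDR 0.167).

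In SLIRP siRNA cells 0 members passed with DHT, beside 1.17% of the 10684 genes tested (9 at an unadjusted p under 0.05, and 0 by DESeq2). The smallest FDR by edgeR was 0.198, for MRPS30. The difference in DHT response between the siRNAs passed in 0 members and in 0% of all genes (0 members and 388 genes at an unadjusted p under 0.05, and 0 members by DESeq2). MRPL32 had a difference of −0.36 (SE 0.203, edgeR FDR 1), between a response of 0.62 in NS and 0.27 in SLIRP siRNA cells.

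Other genes of the mitochondrial ribosome's life cycle were described in lists, to be read beside the 35.2% of all genes that were called in either direction. The translation factors (25% called) and assembly factors (15%) stood below that share, and the 7 further ribosome subunits (42.9%) above it, without a test. Of 7 further ribosome subunits with other symbols 2 were higher, PTCD3 (log2 fold change 0.58) of the small subunit and ICT1 (0.49), a large-subunit protein that releases stalled chains, and 1 was lower, DAP3 (−0.31) of the small subunit. Of 12 translation factors tested 2 were higher, the recycling factor GFM2 (0.88) and the elongation factor TSFM (0.40), and the elongation factor GFM1 was lower (−0.35). Of 20 genes tested from the list of assembly factors 3 were higher and 0 lower. The 3 were the rRNA methyltransferases NSUN4 (0.51) and FTSJ2 (0.52), and MTERF (0.55). MTERF is a mitochondrial transcription termination factor rather than an assembly factor, and the 15% above includes it.

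Among 12 genes of mitochondrial transcription and RNA handling 4 were higher and SLIRP itself was lower, 41.7% in all. That share counts SLIRP, the target of the siRNA, so it is not to be read beside the 35.2% of all genes. LRPPRC, the partner of SLIRP, had 238, 232, 212 and 201 CPM in NS-Veh, 229, 197, 215 and 217 in NS-1nM DHT, 272, 327, 289 and 304 in SLIRP-Veh and 335, 384, 332 and 318 in SLIRP-1nM DHT, with no overlap between the siRNAs and a log2 fold change of 0.56 (SE 0.0712, FDR 1.3e-07, edgeR). The others were the DNA-packaging factor TFAM (0.53) and the tRNA-processing proteins RG9MTD1 (0.53) and KIAA0391 (0.52). Of 8 regulators of mitochondrial biogenesis tested 2 were higher, GABPA (0.39) and PPRC1 (0.57), and YY1 (−0.02) did not pass. Of 12 genes used as a measure of mitochondrial content 4 were higher, TIMM44 (0.75), VDAC3 (0.42), PHB2 (0.26) and CS (0.23), with a median of 0.13 over the 12. The called shares of both lists, 25% and 33.3%, stood below or near the 35.2% of all genes. Cytosolic ribosomal proteins went both ways, with 18 of 84 higher, 21 lower (46.4% called in all) and a median of −0.04.

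The genes that start next to members were examined because paired starts share a promoter region. For 29 members another gene starts on the opposite strand within 1000 bases, and for 21 of these the neighbour was tested. Of the 21 neighbours 4 were higher and 4 lower, 19% in each direction, which is near the share of all genes. Both genes of the pair were called in 3 of the 21 cases, and in each the signs were opposite. No share of such pairs over all genes was computed, so nothing particular to the members is read from them. MRPL18 fell by 0.63 while TCP1, a chaperonin subunit that starts 865 bases away, had a log2 fold change of 0.76. MRPL32 had 0.77 and PSMA2, a proteasome subunit that starts 202 bases away, −0.36. MRPS27 had 0.22 and PTCD2, a mitochondrial RNA-binding protein that starts 133 bases away, −0.50. MRPL46 and MRPS11, members of different subunits that start 320 bases apart, did not pass (0.05 and 0.37). Each is the other's neighbour, so this pair was counted from both sides.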

How the data were processed

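The authors' count table holds estimated counts per gene, rounded to whole numbers, and per the labels CASAVA and RSEM were used with hg19, in roles and versions not given in the sources used here. The authors' normalized table of 13148 genes is a score on a linear scale, estimated counts divided by a library's upper quartile. Reads were single and 50 bases long. The methods name 2 biological replicates from each of 2 experiments, but not which number belongs to which experiment, so p-values measure the spread between these libraries.

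The deposited counts went into edgeR 4.0.16 under R 4.3.3 (TMM, filterByExpr defaults, glmQLFit, glmQLFTest). A gene was called at an FDR of 0.01, by the Benjamini-Hochberg method across every gene in the fit. Of the 20531 entries 29 have a gene identifier but no symbol, and these remained in the tests. SLIRP siRNA against NS used all 16 libraries without a covariate, DHT in NS used the 8 NS libraries, and the other comparisons were contrasts of a 4-group model. SE is the log2 fold change divided by the root of the F statistic. CPM used TMM library sizes, and log2 CPM a prior count of 2. Strand was not stated for the counting, so reads of overlapping and antisense genes cannot be told apart: 29 members overlap exons of another gene and 35 have named pseudogenes. Floors of 3 counts cover counting error only.

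The members and the gene lists were chosen with earlier results of these data known. Named were members called over 16 libraries with separate siRNA groups, the 3 largest changes with DHT in NS, the 3 highest and lowest levels in each subunit, the MRPS18 paralogues, MRPS30, MRPS36, the members called in vehicle alone, and called list genes. The remaining called members, LRPPRC's library values and the neighbours were named after their values were seen. The limit of 2-fold on transcript lengths was also set afterwards, because 22 members have coding transcripts of very unequal length. Gene positions and lengths came from GENCODE on hg19 (10034 of 10167 tested genes had a length), and structural names and promoter stretches from RefSeq, where the structural names of MRPS24 and MRPS28 were entered by hand.

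Alternatives were DESeq2 1.42.0, upper-quartile and RLE normalization, no filter, at least 10 counts in every library, an FDR of 0.05, a replicate block, limma 3.58.1 on the normalized table (pseudocount 1), treatment as a covariate, other library sets and leaving out each library. The tests were checked on simulated data with a single spread for all genes, no split by replicate number and planted changes larger than those of the called members. That check therefore does not cover changes as small as theirs. Correlations between same-numbered libraries were all positive but small, from 0.000111 to 0.201. The numbers were not treated as pairs in the main fits, and the replicate block is the alternative that does so. Numbers 1 and 2 differed from 3 and 4 in the share of cytosolic ribosomal proteins and in proliferation genes, and a term for that split was added as an alternative after seeing the data. The labels tie neither set of numbers to an experiment. Figures used matplotlib 3.10.9 with Python 3.11.15.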

Additional observations from a re-analysis of the deposited data

Results flagged for a closer look

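In 1 of 76 groups of 4 libraries checked, over 15 named members and 4 subunit summaries, a single library stood apart by Dixon's criterion. MRPL53 had 24 CPM in SLIRP-1nM DHT replicate 2, against 16.9 to 17.5 CPM in the other 3 libraries of that group. Chance alone gives about 5% of groups such a library. No member passed the test of a different DHT response between the siRNAs.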

How the results depend on the processing

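Over 16 libraries, the other tools, normalizations, filters and covariates and each library left out gave counts within 1.5 times the 15 higher and 6 lower members. The 6 members with separate groups stayed called with their sign in each of these fits, except that MRPL34 was not tested where at least 10 counts were required in every library. Without 1 library the counts ran from 13 to 16 higher and from 4 to 6 lower. Chosen after seeing the data, only replicates 1 and 2 gave 7 higher and 2 lower and only replicates 3 and 4 gave 5 and 1. MRPS17 then missed the threshold in the former (FDR 0.0286, edgeR), and MRPS9 (0.0282) and MRPL34 (0.0102) in the latter. These fits had fewer libraries, but the log2 fold changes differed too. Of the members called higher over 16 libraries, all but MRPL32 (0.853 against 0.678) had smaller values in replicates 3 and 4. The gap was wide for MRPS9 (0.44 against 1.3) and MRPS22 (0.283 against 0.864) and slight for MRPL4 (0.752 against 0.762). Its cause was not tested. Also added afterwards, a term for numbers 1 and 2 against 3 and 4 gave 15 higher and 6 lower over 16 libraries, 7 and 3 in vehicle and 10 and 4 in DHT. All 21 called members had the same sign in both subsets, but they had been called on the same 16 libraries that the subsets divide. Their agreement in sign is therefore no separate check of the calls. Of all 76 members, called or not, 61 had the same sign in both subsets.

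Counts within a treatment were less stable, and the cause was not tested beyond the smaller number of libraries where one was left out. For vehicle, DESeq2 gave 1 lower against 3, an FDR of 0.05 gave 15 higher against 7, and leaving out 1 library gave 3 to 9 higher and 1 to 4 lower. Without NS-Veh replicate 3 there were 3 higher and 1 lower, and 1 lower also without NS-Veh replicate 4 or SLIRP-Veh replicate 1, 2 or 3. For DHT, DESeq2 gave 1 lower against 4, at least 10 counts in every library gave 2, limma on the normalized table gave 4 higher and 1 lower, and an FDR of 0.05 gave 14 higher against 9. Leaving out 1 library gave 4 to 13 higher and 1 to 4 lower in DHT. Without SLIRP-1nM DHT replicate 2 there were 4 higher and 1 lower, without NS-1nM DHT replicate 2 or 3 there was 1 lower, and without NS-Veh replicate 1, 3 or 4, NS-1nM DHT replicate 1 or SLIRP-1nM DHT replicate 3 there were 2. At an FDR of 0.05, 1 member passed with DHT in NS (MRPL32, FDR 0.0219, log2 fold change 0.624), and 0 in every other setting.

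The large minus small difference, with members grouped by symbol, stayed negative in each setting listed here. It was −0.263 over 16 libraries, −0.275 in vehicle and −0.25 in DHT with the median over members, and −0.136, −0.119 and −0.154 over the 38 large and 21 small members with a mean count of at least 30. Leaving out 1 library, also chosen after seeing the data, gave −0.0909 to −0.0697 over 16 libraries, −0.0881 to −0.0385 in vehicle and −0.105 to −0.0912 in DHT. The replicate block gave 16 higher and 5 lower over 16 libraries, 8 and 3 in vehicle, 11 and 4 in DHT and 0 in the others. Libraries correlated best with their own number, among 4 to choose from, in 3 of 8 cases between NS-Veh and SLIRP-Veh. This held in 5 of 8 between NS-1nM DHT and SLIRP-1nM DHT, 5 of 8 between NS-Veh and NS-1nM DHT and 3 of 8 between SLIRP-Veh and SLIRP-1nM DHT. Depth limits the lowest members most: only 57 of 76 had 10 counts in every library.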
